A study of Mus musculus with 8 samples.

Results

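The genes described here are the transcriptional coactivators Yap and Taz, the Tead factors through which they reach DNA, and a small set of genes that are widely used as readouts of their activity. They were chosen by name: every probe of the array that is not a control and whose gene name is *Yap1*, *Wwtr1*, *Tead1*, *Tead2*, *Tead3*, *Tead4*, *Ctgf*, *Cyr61*, *Ankrd1* or *Amotl2* was taken. All 10 genes were on the array, with 13 of the 55681 probes and as 10 of the 36406 gene names. Expression was measured in E14Tg2A.4 cells, an established mouse embryonic stem (ES) cell line, in total RNA from untreated cells (4 arrays) and from cells treated with all-trans retinoic acid (RA) at 1 µM for 3 days (4 arrays). RA is a vitamin A derivative that binds nuclear receptors and makes ES cells leave self-renewal, and the question behind the comparison is how these genes stand before and after that step. RA was given in medium without leukemia inhibitory factor, so RA and the absence of that factor cannot be told apart if the untreated cells were grown with it, which is not given in the sources used here. The labels name no transgene or knockdown for either group.

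Yap (encoded by *Yap1*) and Taz (encoded by *Wwtr1*) have no DNA-binding domain of their own and act in the nucleus as partners of the Tead factors. In the Hippo pathway the Mst kinases activate the Lats kinases, which phosphorylate Yap and Taz, and this holds them in the cytoplasm or marks them for breakdown, so much of the control of this pathway acts on the proteins and is not seen in RNA. In ES cells and early embryos Yap and Tead are known for their part in self-renewal and in the choice between trophectoderm and inner cell mass, and *Ctgf*, *Cyr61*, *Ankrd1* and *Amotl2* are the genes most often read as their output.

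Values below are log2 intensities relative to the 75th percentile of the same array, and they are not comparable between genes because each probe binds its transcript with its own strength. A gene was called higher or lower after RA where limma gave an adjusted p under 0.05 over all probes and the change exceeded 1.5-fold, the thresholds that the study names. The arrays had between 33629 and 37175 spots well above background, and pairs of arrays of the same condition correlated at 0.979 or more in untreated and at 0.988 or more in RA-treated cells. The median log2 change over all genes was -0.28 with this scaling and -0.00427 after quantile normalization, so a change given here is about 0.28 smaller than one measured from the typical gene. Of 10 markers of pluripotency 10 were lower after RA, and their summed level on the linear scale fell from between 330 and 494 to between 7.82 and 33.4 times the 75th percentile, with RA-treated replicate 2 retaining the most. Of 10 markers of smooth muscle and mesenchyme 9 were higher, and their summed level went from between 6.24 and 10 to between 339 and 583. All 10 primitive endoderm markers were higher (summed level 9.44 to 24.8 in untreated and 74.2 to 99.7 in RA-treated cells). Of the neural markers 3 of 10 were higher and 2 lower (7.86 to 12.6 and 14.4 to 15.6), and of the trophoblast markers 6 of 9 were higher and 1 lower (26.2 to 33.6 and 24.2 to 36.5). The neural genes *Dcx*, *Nes* and *Ncam1* were higher, *Tubb3* and *Elavl3* lower, and *Sox1* and *Pax6* among those not called. Of the trophoblast genes *Cdx2* and *Gata3* were among those higher, *Tcfap2c* was lower, and *Eomes* and *Ascl2* were not called. Such sums mostly follow the brightest probes. In untreated cells these were *Tcfap2c* among the trophoblast markers (mean 4.59) and *Lama1* among those of primitive endoderm (mean 3.69). The median log2 change was 3.02 for the trophoblast and 3.16 for the primitive endoderm markers. Fewer cells of a type and less RNA per cell cannot be told apart in such bulk samples, and the part of these cell type differences in the results on Yap and Tead was not tested.

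After RA, 8 of the 10 genes were higher, none was lower, and *Yap1* and *Ctgf* were not called. The coactivator gene *Wwtr1*, all 4 Tead genes and the target genes *Cyr61*, *Ankrd1* and *Amotl2* rose, by between 1.96-fold (*Tead1*) and 17.8-fold (*Ankrd1*, whose probe was not well above background on 2 of the 4 untreated arrays and whose fold depends on the background correction, as given below). In the same test 13.9% of all genes were called higher and 22.1% lower, or 15.6% and 16.3% after quantile normalization. Among the 20417 genes well above background on all 8 arrays, as 9 of the 10 genes were, 18.1% were higher and 27.5% lower. In the same 8 genes every RA-treated array lay above every untreated array, which was the case for 15.2% of all genes. The median log2 change of the 10 genes was 1.47. The genes were chosen with earlier results of these data known, so their count is no test of an excess over these shares.

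**Figure D1:**
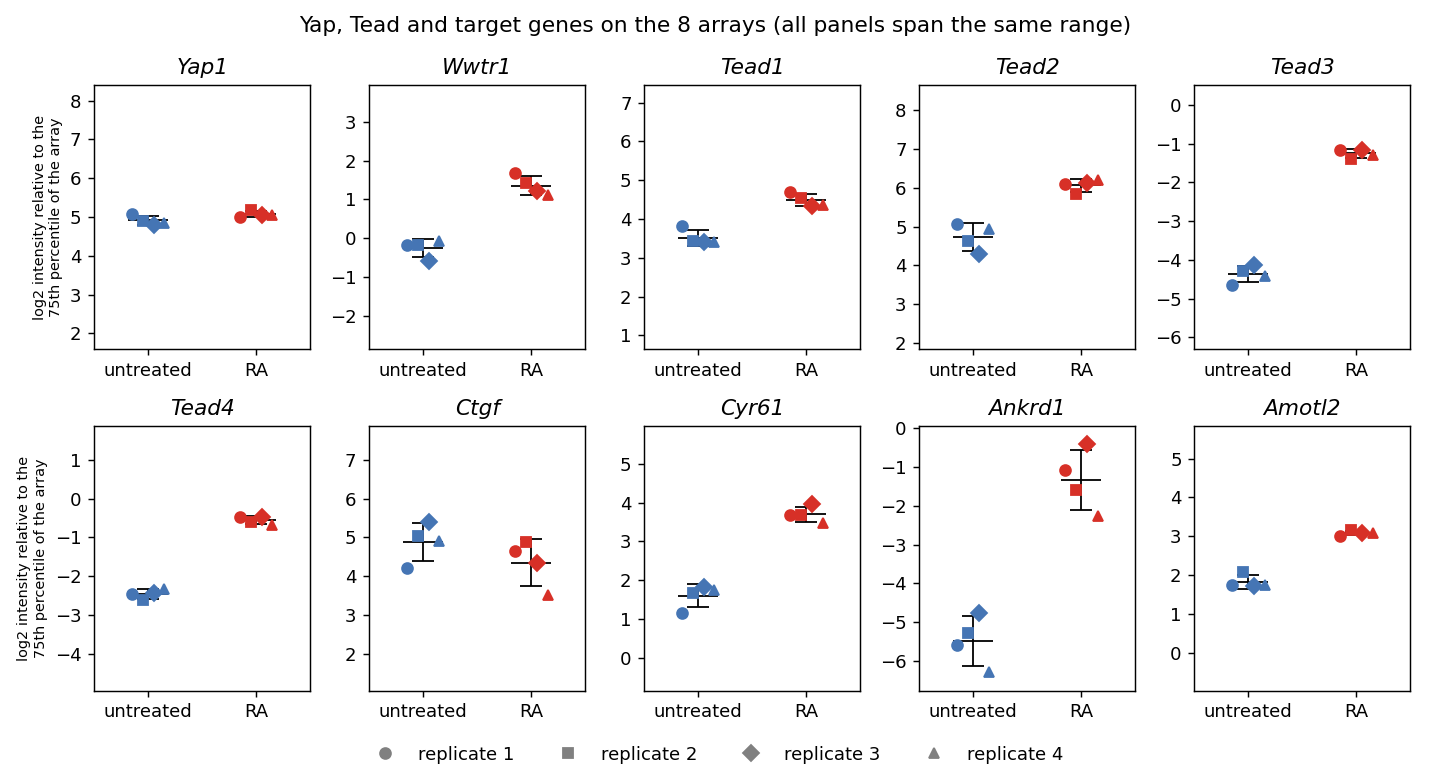
Log2 intensity of each gene relative to the 75th percentile of the array (vertical axis) on the 4 untreated (blue) and 4 RA-treated (red) arrays, by the brightest probe, with replicate numbers as symbols, the mean as a wide bar and the SD as error bars; all panels span the same range but are centred on their own gene. The conditions are separated in every panel except those of *Yap1* and *Ctgf*.

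The coactivators differed from each other. *Yap1* was measured by one probe at chr9:7932025-7932084 (mm9, minus strand), and read 5.08, 4.91, 4.80 and 4.85 in untreated replicates 1 to 4. In RA-treated replicates 1 to 4 it read 5.01, 5.19, 5.06 and 5.05. The conditions overlapped, because untreated replicate 1 lay above 3 of the RA-treated arrays, and the log2 change was 0.17 (SE 0.13) with an adjusted p of 0.315 in limma. With quantile normalization the change of *Yap1* was 0.40 with an adjusted p of 0.00375, and with the values processed by the authors 0.37 with 0.00244, in both cases under 1.5-fold, so that it was not called under any setting. *Wwtr1*, probed at chr3:57259999-57260058 (mm9, minus strand), read -0.18, -0.18, -0.59 and -0.08 in untreated and 1.67, 1.42, 1.21 and 1.12 in RA-treated cells. Every RA-treated array was higher than every untreated one, and the log2 change was 1.61 (SE 0.18, adjusted p = 0.000165 in limma), a 3.06-fold rise. The lowest RA-treated array exceeded the highest untreated array by more than the range within either condition. The difference *Wwtr1* minus *Yap1* within an array lay between -5.39 and -4.93 in untreated and between -3.93 and -3.34 in RA-treated cells. It was thus larger after RA by 1.45 on the log2 scale, and the conditions did not overlap. An exact two-sided permutation test over the 70 ways to split the arrays gave p = 0.0286, the smallest it allows. It was 0.0381 after adjustment over the 8 pairs of related genes that were compared. These splits take the arrays as unpaired. A permutation within replicate numbers gave p = 0.125, the smallest it allows, so it could not pass. The 4 differences between arrays of the same number were all positive (1.00 to 1.92).

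The 4 Tead genes encode DNA-binding factors with a shared TEA domain, and all 4 rose. *Tead1* was measured by 3 probes. The brightest, at chr7:120049844-120049903 (mm9, plus strand), read 3.82, 3.43, 3.40 and 3.42 in untreated and 4.69, 4.53, 4.35 and 4.37 in RA-treated cells. Untreated replicate 1 and RA-treated replicate 1 were the highest of their conditions, and the conditions did not overlap. The log2 change was 0.97 (SE 0.16, adjusted p = 0.00135 in limma), a 1.96-fold rise. A test of whether the change exceeds 1.5-fold (treat of limma) gave an adjusted p of 0.098 for *Tead1*. The other probes of *Tead1* changed by 0.65 (adjusted p = 0.0207 in limma) and 0.81 (adjusted p = 0.0365), the latter with overlapping conditions. With the replicate number as a block these probes gave adjusted p values of 0.0603 and 0.0505 in limma and were no longer called, and with the slide as a block the latter gave 0.0501.

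*Tead2*, known for its expression in the early embryo, was read by a probe at chr7:52488930-52488989 (mm9, plus strand). It read 5.08, 4.63, 4.29 and 4.95 in untreated cells and 6.09, 5.84, 6.13 and 6.20 after RA. The conditions did not overlap, and untreated replicate 3 was the lowest array. The log2 change was 1.33 (SE 0.20, adjusted p = 0.000819 in limma), and a further probe of the gene gave 1.30 (adjusted p = 0.000692).

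*Tead3*, probed at chr17:28468622-28468681 (mm9, minus strand), had the largest change of the family. Its untreated arrays read -4.64, -4.29, -4.13 and -4.40, and its RA-treated arrays -1.18, -1.39, -1.16 and -1.29. The conditions lay far apart with little spread in either, and the log2 change of 3.11 (SE 0.15, adjusted p = 3.38e-06 in limma) amounts to 8.63-fold. The probe was well above background on all 8 arrays, but its untreated signal was low, and the size of the change depended on how background was treated: it was 1.88 with the normexp correction and 2.02 in the values processed by the authors. *Tead4*, known for its part in trophectoderm, was probed at chr6:128177161-128177220 (mm9, minus strand) and read -2.47, -2.62, -2.43 and -2.33 in untreated cells. After RA it read -0.48, -0.60, -0.47 and -0.69. The RA-treated arrays were again all higher, by 1.90 on the log2 scale (SE 0.13, adjusted p = 1.5e-05 in limma) or 3.74-fold.

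Compared within arrays, *Tead3* rose more than each of the other Tead genes. After RA the log2 difference *Tead3* minus *Tead4* was larger by 1.21, while *Tead2* minus *Tead3* changed by -1.78 and *Tead1* minus *Tead3* by -2.14. *Tead1* also rose less than *Tead4*, with a change of -0.93 in their difference. Each of these 4 comparisons separated the conditions completely, with p = 0.0286 in the exact two-sided permutation test and 0.0381 after adjustment over the 8 pairs. With normexp correction the changes were smaller: 0.35 for *Tead3* minus *Tead4*, -0.93 for *Tead1* minus *Tead3* and -0.57 for *Tead1* minus *Tead4*, against 0.42, -0.90 and -0.49 in the values processed by the authors. These 3 pairs passed under both. The difference between *Tead2* and *Tead3* did not pass with normexp correction (-0.52, adjusted p = 0.0762 in the exact permutation test) or in the values processed by the authors (-0.43, adjusted p = 0.098). For *Tead1* minus *Tead2* the difference was -0.36 (adjusted p = 0.143 in the exact permutation test) and for *Tead2* minus *Tead4* -0.58 (adjusted p = 0.0653), so neither pair was shown to differ by this test. For every one of the 8 pairs the 4 differences between arrays of the same number had one sign, from -0.90 to -0.10 for *Tead1* minus *Tead2* and from -0.98 to -0.12 for *Tead2* minus *Tead4*. Swapping conditions only within replicate numbers gave an exact permutation p of 0.125 for each pair, the smallest that this test allows with 4 numbers, so it could not pass for any pair and says nothing about them. Without untreated replicate 3 *Tead2* minus *Tead4* was -0.74 with an adjusted p of 0.0327 in the exact permutation test over free splits. By the same test it was only -0.16 with normexp correction (adjusted p = 0.457) and -0.02 in the values processed by the authors (adjusted p = 0.943).

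**Figure D2:**
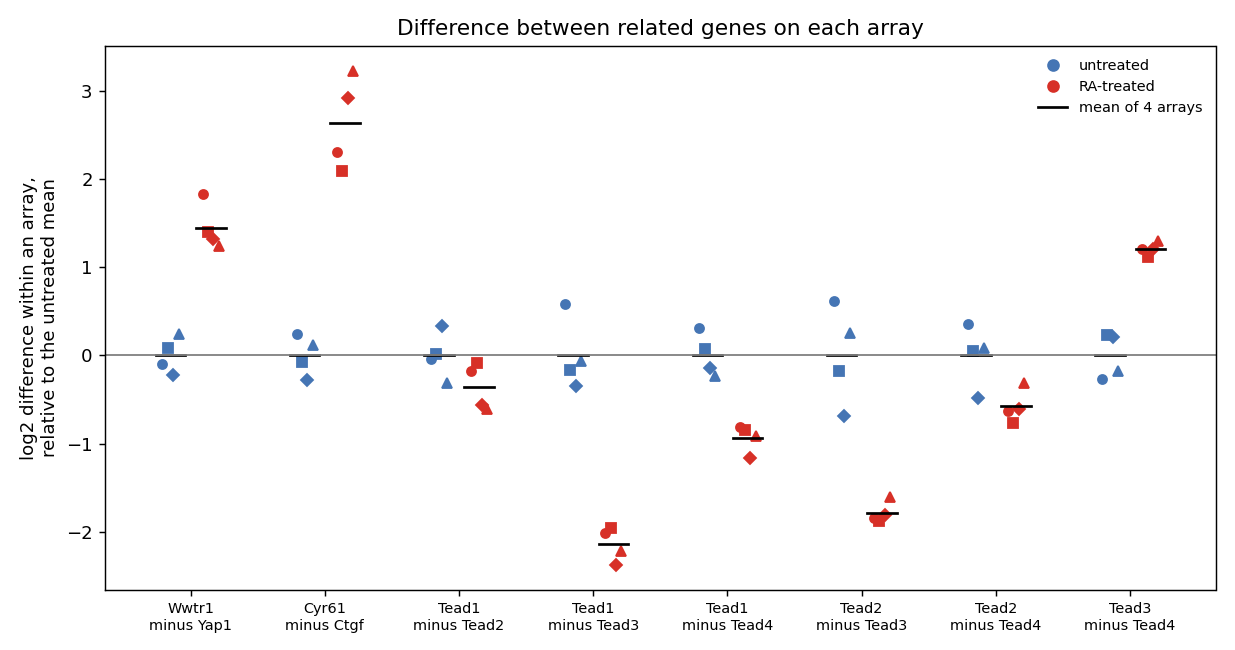
Difference in log2 intensity between 2 related genes on each array (vertical axis), shifted so that the mean of the 4 untreated arrays (blue) is 0; red symbols are the RA-treated arrays, symbol shapes stand for replicates 1 to 4 as circle, square, diamond and triangle, and bars are means. The *Cyr61* minus *Ctgf* pair moved most, by 2.64, and *Tead1* minus *Tead2* least, by -0.36, with overlapping arrays.

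The target genes were split. *Ctgf* and *Cyr61* encode secreted matricellular proteins of the same family, *Ankrd1* a nuclear and sarcomeric ankyrin repeat protein, and *Amotl2* an angiomotin that binds Yap and restrains it. The Tead factors bind the letters GGAATG, read as CATTCC on the other strand, and the stretches of 250 bases before the start site (RefSeq, GRCm38.p6, transcribed strand, 5′ to 3′) are shown for the target genes that rose and for one Tead gene, with these letters in capitals.
Cyr61: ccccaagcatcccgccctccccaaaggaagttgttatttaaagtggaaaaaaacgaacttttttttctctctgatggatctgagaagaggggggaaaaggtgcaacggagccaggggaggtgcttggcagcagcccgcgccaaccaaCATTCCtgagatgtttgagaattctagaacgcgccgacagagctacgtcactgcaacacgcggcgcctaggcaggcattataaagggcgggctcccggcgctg
Ankrd1: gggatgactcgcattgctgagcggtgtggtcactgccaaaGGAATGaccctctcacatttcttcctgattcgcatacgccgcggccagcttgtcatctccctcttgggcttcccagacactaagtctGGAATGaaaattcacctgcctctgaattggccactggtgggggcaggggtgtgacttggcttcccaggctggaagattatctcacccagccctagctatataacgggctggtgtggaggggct
Amotl2: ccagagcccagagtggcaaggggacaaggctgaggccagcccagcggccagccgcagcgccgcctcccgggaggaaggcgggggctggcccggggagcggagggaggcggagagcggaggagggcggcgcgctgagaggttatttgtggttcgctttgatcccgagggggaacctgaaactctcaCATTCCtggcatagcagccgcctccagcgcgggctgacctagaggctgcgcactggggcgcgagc
Tead3: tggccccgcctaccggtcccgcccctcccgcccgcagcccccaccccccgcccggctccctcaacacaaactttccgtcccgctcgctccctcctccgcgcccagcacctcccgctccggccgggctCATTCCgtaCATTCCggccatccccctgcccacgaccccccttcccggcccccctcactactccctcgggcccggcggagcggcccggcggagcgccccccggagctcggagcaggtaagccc
The *Cyr61* stretch is chr3:145649986-145650235 (minus strand) and holds the letters 103 bases before the start, *Ankrd1* is chr19:36119845-36120094 (minus strand) with copies 210 and 123 bases before it, and *Amotl2* is chr9:102717554-102717803 (plus strand) with one at 65 bases. The *Tead3* stretch, chr17:28350601-28350850 (minus strand), belongs to one of its 3 listed start sites and holds copies at 123 and 114 bases. Of the windows at its other start sites, one holds a copy at 182 bases and the other holds none. Both strands were searched, and 12.6% of the 32851 windows of the table and 14.4% of its 27025 genes hold the letters. A window was matched for 7 of the 10 genes (all but *Ctgf*, *Tead1* and *Tead4*), and 6 of these 7 hold the letters, *Yap1* at 141 bases and *Wwtr1* at 136 or 170 bases by start site included, while the window of *Tead2* does not. A match describes the sequence alone, since binding of Tead was not measured in these arrays.

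*Cyr61*, probed at chr3:145310187-145310246 (mm9, minus strand), read 1.17, 1.67, 1.82 and 1.75 in untreated and 3.68, 3.69, 3.96 and 3.47 in RA-treated cells. Every RA-treated array was higher, and the log2 change was 2.10 (SE 0.19, adjusted p = 4.91e-05 in limma), a 4.28-fold rise. *Ctgf*, probed at chr10:24318281-24318340 (mm9, plus strand), read 4.21, 5.04, 5.39 and 4.92 in untreated and 4.66, 4.89, 4.33 and 3.53 in RA-treated cells. The conditions overlapped: untreated replicate 1 was lower than 3 RA-treated arrays, and RA-treated replicate 4 was the lowest of all. The log2 change of *Ctgf* was -0.54 (SE 0.34, adjusted p = 0.223 in limma), with means of 4.89 ± 0.49 in untreated and 4.35 ± 0.60 in RA-treated cells (SD, n = 4 each). The change lay between -0.76 and -0.26 when single arrays were left out and between -0.54 and -0.34 over the other settings, and it never passed the test. Of the 4 replicate numbers, *Ctgf* was higher after RA in 1. Untreated replicate 1 and RA-treated replicate 4 were the lowest arrays of their condition for *Ctgf* and *Cyr61* alike. The difference *Cyr61* minus *Ctgf* within an array was between -3.57 and -3.05 in untreated and between -1.20 and -0.06 in RA-treated cells. It rose by 2.64 on the log2 scale, the largest shift among the 8 pairs (exact two-sided permutation p = 0.0286, adjusted 0.0381). That test takes the arrays as unpaired. Within replicate numbers the permutation p was 0.125, the smallest possible, with all 4 differences positive (2.07 to 3.20).

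*Ankrd1* had the largest change of the 10 genes. Its probe at chr19:36186809-36186868 (mm9, minus strand) read -5.59, -5.27, -4.77 and -6.30 in untreated cells, and was well above background only in replicates 2 and 3. After RA it was well above background on all arrays and read -1.06, -1.59, -0.42 and -2.25. Replicate 3 was the highest and replicate 4 the lowest in both conditions, and the difference between arrays of the same number was between 3.69 and 4.52. The log2 change was 4.15 (SE 0.43, adjusted p = 0.000108 in limma), or 17.8-fold. Its size depended on the background correction, with 2.24 under normexp and 2.39 in the values processed by the authors. It was 3.52 on one slide and 4.78 on the other.

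*Amotl2*, probed at chr9:102635025-102635084 (mm9, plus strand), read 1.73, 2.09, 1.71 and 1.74 in untreated and 3.01, 3.15, 3.09 and 3.07 in RA-treated cells. The RA-treated arrays were close together (SD 0.05) and all higher than the untreated ones. The log2 change was 1.27 (SE 0.14, adjusted p = 0.000154 in limma), a 2.41-fold rise.

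**Figure D3:**
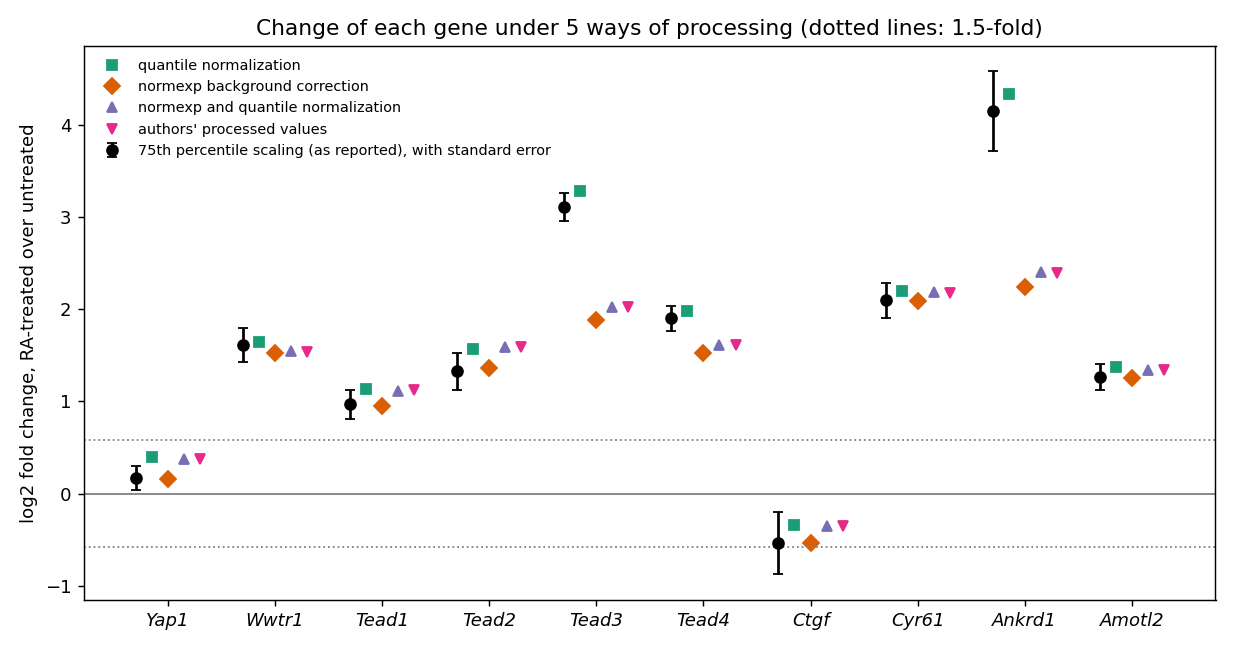
Log2 change after RA (vertical axis) of each gene with 75th percentile scaling (black, error bars are standard errors) and under 4 other ways of processing the same 8 arrays; dotted lines mark 1.5-fold in either direction. The processing moves *Tead3* (from 3.11 to as little as 1.88) and *Ankrd1* (from 4.15 to 2.24) most, and leaves *Yap1* and *Ctgf* within the dotted lines.

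Other genes of the pathway were read from lists by role, 52 genes in all beside the 10. Of these 28 were higher, 4 lower and 20 not called, where 13.9% of all genes were called higher and 22.1% lower. Among genes well above background on all 8 arrays, as 38 of the 52 were, the shares were 18.1% and 27.5%. The lists were chosen with earlier results of these data known, so the counts are no test of an excess over these shares. The median log2 change of the 52 genes was 0.91, against -0.28 for all genes. The lower genes were *Taok2*, *Stk4*, *Nf2* and *Nov*, and with treat of limma against 1.5-fold the adjusted p of the first of these was 0.314, that of *Stk4* 0.653 and that of *Nf2* 0.072, while the fall of *Nov* is only bounded, as given below.

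Of the 11 genes of the Hippo kinase cascade, 4 were higher, 2 lower and 5 not called, with a median log2 change of 0.31. The 2 lower genes are a share near that of all genes (22.1%), of which 13.9% were called higher. All 11 kinase cascade genes were well above background on all 8 arrays, and of such genes 18.1% were higher and 27.5% lower. *Lats2*, which encodes one of the kinases that phosphorylate Yap and is itself read as a Yap target, rose by 3.54 (SE 0.18, adjusted p = 4.21e-06 in limma), and by 1.14 on its other probe. With normexp the rise of *Lats2* was 2.82, and in the values processed by the authors 2.91. *Mobkl1b* (now *Mob1a*), whose product activates the Lats kinases, rose by 1.06 and by 1.66 on its other probe. *Stk3*, which encodes the kinase Mst2, rose by 0.99, and its relative *Stk4* (Mst1) was lower by a change of -0.72 on the brighter probe but read 0.25 on the other. *Taok2*, a kinase upstream of Mst, fell by 0.91. *Lats1*, the close relative of *Lats2*, changed by 0.16 (adjusted p = 0.405 in limma) and *Taok3* by -0.20 (adjusted p = 0.292), neither of which passed.

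Among 15 upstream and junctional regulators, 6 were higher, 1 lower and 8 not called (median 0.67). Over all genes 13.9% were higher and 22.1% lower, and over those well above background on all arrays 18.1% and 27.5%. The atypical cadherins *Fat4* and *Dchs1*, which bind each other between neighbouring cells, both rose. *Fat4* was not well above background on any untreated array and was at least 10.1-fold higher after RA by the bound that the dimmest measurable signal sets (measured log2 change 5.27, adjusted p = 0.000231 in limma). That bound holds for this scale only, since the log2 change was 2.05 with normexp and 2.18 in the values processed by the authors. *Dchs1* rose by 4.12 (SE 0.20, adjusted p = 3.33e-06 in limma), or by 3.06 with normexp and 3.16 in the values processed by the authors. *Amot*, the founding angiomotin, rose by 3.69 and *Limd1*, a LIM protein that binds Lats kinases, by 1.49. *Nf2*, which encodes the membrane-linked activator Merlin, was lower, by a log2 change of -1.14 and of -2.75 on its other probe. The polarity gene *Scrib* (0.08, adjusted p = 0.639 in limma) and *Wwc2* (0.15, adjusted p = 0.40) did not pass.

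The Vgll proteins compete with Yap and Taz for Tead, and 3 of the 4 Vgll genes were higher, with a median change of 1.62. Among all genes 13.9% were called higher. *Vgll3*, called at 1.11 with overlapping conditions, was not called with normexp (0.16) or in the values processed by the authors (0.39). None of the 4 was well above background on all arrays. *Vgll4*, which restrains Yap-dependent transcription, rose by 7.19 (SE 0.46, adjusted p = 1.02e-05 in limma), with 1 of 4 untreated arrays well above background, and by 4.45 with normexp correction. *Vgll2* rose by 1.80, or by 0.80 with normexp.

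Of 18 other genes that are known as Yap or Taz targets, 14 were higher, none lower and 4 not called, with a median log2 change of 1.65. The shares over all genes were 13.9% higher and 22.1% lower, or 18.1% and 27.5% among genes well above background on all arrays. *Ccdc80*, a secreted matrix protein, rose by 8.36 (SE 0.32, adjusted p = 1.49e-06 in limma) and was well above background on 1 of the 4 untreated arrays. Its change was 5.82 with normexp and 5.96 in the values processed by the authors. The other probe of *Ccdc80*, well above background on no untreated array, was at least 13.6-fold higher, a bound that again holds for this scale only. *Tgfb2*, a growth factor gene, rose by 4.98 (SE 0.21, adjusted p = 2.08e-06 in limma) and was measured well above background throughout. *Rbms3*, an RNA-binding protein gene, and the forkhead gene *Foxf2* were not well above background on any untreated array and were at least 77.7-fold and at least 12.1-fold higher after RA, respectively. These bounds hold for this scale only: the log2 change of *Rbms3* was 4.34 with normexp and 4.42 in the values processed by the authors, and that of *Foxf2* 2.05 and 2.18. A further probe of *Rbms3* rose by 3.43, and another, not well above background on any array, read a change of -0.29. *Gadd45a* (-0.11) and *Dock5* (-0.50) had the smallest changes among the targets well above background on all arrays and did not pass, and *Gadd45a* read 0.01 in the values processed by the authors. *Lats2* is counted in this list as well as among the kinases.

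Of 8 relatives of the target genes, 4 were higher, 1 lower and 3 not called (median 0.73), against 13.9% of all genes higher and 22.1% lower. In the family of *Ctgf* and *Cyr61*, *Wisp1* rose by 2.27 (SE 0.32, adjusted p = 0.000591 in limma), *Nov* was lower with a measured log2 change of -2.18, and *Wisp2* and *Wisp3* were not well above background on any array. *Nov* was well above background on 2 untreated and no RA-treated arrays, so that the fall is only bounded, at a log2 change of -0.19 or lower, and it was -0.24 in the values processed by the authors. Beside *Ankrd1*, the muscle gene *Ankrd2* rose by 3.32 (well above background on 2 of 4 untreated arrays), or by 1.57 with normexp and 1.73 in the values processed by the authors. *Ankrd23* was called at 0.64 with overlapping conditions, but it was under 1.5-fold with normexp (0.50), in the values processed by the authors (0.58) and on its other probe (0.56). Beside *Amotl2*, *Amot* rose as given above, and *Amotl1* changed by 0.82 without passing (adjusted p = 0.0502 in limma), and was called higher with quantile normalization (0.96, adjusted p = 0.0368) and in the values processed by the authors (0.60, adjusted p = 0.0152).

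**Figure D4:**
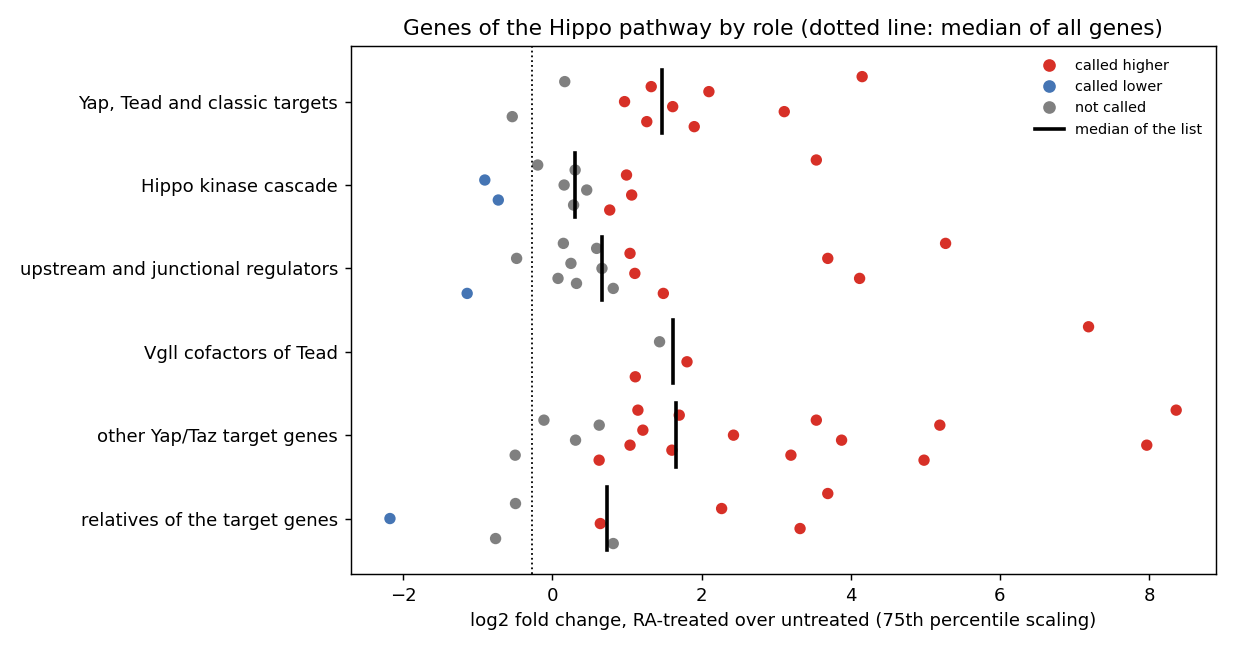
Log2 change after RA (horizontal axis) of every gene of the pathway lists, grouped by role (vertical axis; points are spread vertically only to keep them apart), in red where called higher, blue where called lower and grey otherwise; bars are list medians and the dotted line is the median of all genes, -0.28. The other target genes have the highest median (1.65) and the kinase cascade the lowest (0.31), and a gene of more than one list is drawn in each.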

How the data were processed

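RNA from 4 untreated and 4 RA-treated cultures was hybridized to Agilent 1-colour SurePrint mouse arrays. The study states 4 biological replicates per condition. Conditions and replicate numbers were taken from the labels. For each array the authors deposited scanner output of Feature Extraction 10.7.3.1, which gives per spot a background-corrected intensity that is not normalized between arrays, the raw and background intensity, and flags of 0 or 1 (well above background, saturated, outlier). A further table that the authors deposited holds log2 values of these spots, with one distribution on all arrays. Its normalization is not given in the sources used here. Its columns follow the log2 of normexp-corrected intensities with r between 0.9996 and 1. Probe positions are on mm9, and gene names follow the design of the array.

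In R 4.3.3, processed intensities were put on the log2 scale relative to the 75th percentile of the 59305 spots of each array that are not controls. The 3671 control spots and 124 to 145 outlier spots per array were left out, none of them spots of the 10 genes, no spot was saturated, and spots of a probe were averaged. A gene is given by its brightest probe on average. Untreated and RA-treated arrays were compared in limma 3.58.1 (lmFit, eBayes) and Benjamini-Hochberg adjustment over 55681 probes, at an adjusted p under 0.05 and a change above 1.5-fold. Related genes were compared by the difference within arrays, with an exact two-sided permutation test. A fold "at least" compares the bright condition with the dimmest signal called well above background on each dim array. It holds for this scale and is no strict limit, since *Fat4*, *Rbms3* and *Foxf2* changed by less than their bounds with normexp. The steps were tested on simulated data.

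Of each pathway list, up to 4 genes with the largest called change and no overlap between the conditions, and up to 2 with the smallest change among those well above background on all arrays, are named. *Stk4*, *Nf2*, *Vgll3*, *Wisp2* and *Wisp3* were named after their values had been seen. The 10 genes, the lists and the tests were chosen with earlier results of these data known. The number of arrays limits the precision of every value.

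Alternatives were quantile normalization, normexp correction (offset 50) alone and with quantile normalization, the authors' values, probes well above background on at least 4 arrays, treat, slide and replicate blocks, other probes and leaving out each array. Sign flips of same-numbered differences between related genes were added after seeing the data. The 2 slides hold 2 arrays of each condition each. Deviations from the means of their conditions correlated between arrays that share a number. Over 27508 probes, r was 0.187, 0.189, 0.104 and 0.152 for replicates 1 to 4. Arrays of different numbers reached 0.129 (untreated replicate 4 with RA-treated replicate 3) and 0.142 (untreated replicate 1 with RA-treated replicate 4). Each of these pairs shared a slide. The value of replicate 3 was lower than either, so these values do not settle whether the numbers pair the cultures. The replicate block and the sign flips assume such pairing. The limma comparison without blocks and the permutation over free splits take the arrays as unpaired. Promoter windows come from RefSeq (GRCm38.p6).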

Additional observations from a re-analysis of the deposited data

Results flagged for a closer look

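Within a condition, a single array stood apart from the other 3 in 5 of the 76 sets of 4 values examined for the 10 genes and the named pathway genes. Chance flags about 1 in 20 such sets, or 3.8 of these 76. The log2 intensity of *Tead1* was 3.82 in untreated replicate 1, against 3.40 to 3.43 in the other untreated arrays. That of *Amotl2* was 2.09 in untreated replicate 2, against 1.71 to 1.74. *Dchs1* read 0.0876 in RA-treated replicate 2, against 0.29 to 0.32, and *Lats2* read 0.11 on the same array, against 0.38 to 0.40. *Wwc2* read 3.58 in untreated replicate 3, against 3.87 to 3.90.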

How the results depend on the processing

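The number of the 10 genes called higher was 8 under 7 other settings and without any single array, and 7 with treat, which *Tead1* did not pass. None was lower under any of them. Of the other pathway genes, 28 were higher (19 to 32 over the other settings, 24 to 29 without single arrays) and 4 lower (3 with normexp, with normexp and quantile normalization, with the authors' values and among probes that are not dim, in each of which *Nov* was lost; 1 with treat; 4 to 5 without single arrays). Of the 8 pairs of related genes, 6 differed, 5 with normexp, normexp and quantile normalization or the authors' values (*Tead2* minus *Tead3* then at -0.52, -0.44 and -0.43), and 6 to 7 without single arrays. In a replicate block of sign flips within the numbers, chosen after seeing the data, 0 pairs passed, since its p cannot go under 0.125. In the limma fit with the replicate block the counts were again 8 and 0, and all 32 calls of pathway genes were shared, with 0 lost and 0 gained. There the dimmer *Tead1* probes lost their calls, as given above. No change of the 10 genes and no difference between related genes reversed, while the pathway gene *Stk4*, counted as lower, read -0.72 on one probe and 0.25 on the other. Genes that are dim in untreated cells, such as *Ankrd1* and *Tead3*, have a change whose size, but not direction, follows the background correction.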
